A study of Mus musculus with 24 samples.

Results

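The genes described here are 10 secreted or membrane-bound matrix proteases and their tissue inhibitors: the matrix metalloproteinases Mmp2, Mmp3, Mmp10, Mmp13 and Mmp14, the aggrecanase-type proteases Adamts1 and Adamts5, and the inhibitors Timp1, Timp2 and Timp3. They are 10 of the 56941 gene IDs in the deposited files, and all 10 passed the low-count filter that left 13281 genes. The set was assembled by family and selected on 2 measured patterns, the higher level of Mmp3 in high glucose and the low level of Adamts1 in high glucose at the dose labels 2 and 3. Those values are therefore given as a description, with no test, and the tests below concern the other genes or other comparisons. Only the closing section counts calls of Mmp3 and Adamts1 in the comparisons that chose them, and nothing is read from those calls.

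The libraries hold polyadenylated RNA from a mouse cell line that the labels call hypothalamic cells, and the series design calls neuronal. The line was grown in normal glucose (NG) or high glucose (HG). In each medium there was a control (C) and 3 levels of mogroside V, the sweet glycoside of monk fruit, labelled 1, 2 and 3, which gives the 8 groups NGC, NG1, NG2, NG3, HGC, HG1, HG2 and HG3 with 3 libraries each. The design lists doses of 15, 60 and 160 µM, but the labels do not say which number stands for which of them, and they give neither the glucose concentrations nor the length of treatment. All groups come from the 1 cell line, and no label says that replicates were separate cultures, so the p-values below measure only how far these libraries spread, and that spread may be technical.

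Matrix metalloproteinases are zinc enzymes made as inactive precursors that cleave collagens, laminin, proteoglycans and other proteins around the cell. ADAMTS enzymes are related secreted proteases that cut aggrecan, versican and other proteoglycans. TIMPs bind the active site of these enzymes and block it, and in the brain the balance between both sides is known for its part in perineuronal nets, the blood-brain barrier and the response to injury. The genes of several of the inducible enzymes are known to be switched on through AP-1 sites close to a TATA box.

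The 22 libraries used held 3396249 to 7773074 counts in genes. The files labelled HG2 replicate 3 and HG3 replicate 2 held the same values throughout, so both were left out and HG2 and HG3 have n = 2. Of the libraries used, NG3 replicate 3 and HGC replicate 2 had the fewest genes detected, 16535 and 17110, and results are given with and without this pair where they rest on it. The neuronal label was carried mainly by Map2 and Tubb3, of which Map2 was lower in high glucose. The neuronal splicing factor Rbfox3 had 10 reads in all 22 libraries, and of 14 hypothalamic neuropeptides and receptors 6 had no read in any library and 10 stayed under 1 CPM (counts scaled to 1000000 per library) in every library. Summed over 11 genes of fibroblasts and pericytes, the level was 5510 to 7814 CPM in normal glucose and 7263 to 8176 CPM in high glucose.

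Mmp13, Mmp3 and Mmp10 lie in this order in a cluster of metalloproteinase genes on chromosome 9, and their promoters are shown because these 3 genes had the largest differences between the media among the 10. The promoter of Adamts1 is shown beside them. Mmp3 and Adamts1 were picked on their values, so nothing is read from setting their motifs side by side. The stretches are the 250 bases before the gene start on the gene's own strand, taken from RefSeq on the build GRCm38.p6, whereas the deposited counts were made on GRCm39. Capitals mark matches to the AP-1 motif TGANTCA or the TATA box TATAAA, searched on both strands. The stretch for Mmp3 is chr9:7445572-7445821 on the plus strand, that for Mmp10 chr9:7502092-7502341 on the plus strand, that for Mmp13 chr9:7272264-7272513 on the plus strand and that for Adamts1 chr16:85803114-85803363 on the minus strand.
Mmp3: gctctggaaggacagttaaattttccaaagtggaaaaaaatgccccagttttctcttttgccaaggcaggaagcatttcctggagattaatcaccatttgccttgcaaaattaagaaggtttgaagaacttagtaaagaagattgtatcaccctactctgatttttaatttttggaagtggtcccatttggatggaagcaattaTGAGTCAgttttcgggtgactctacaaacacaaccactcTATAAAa
Mmp10: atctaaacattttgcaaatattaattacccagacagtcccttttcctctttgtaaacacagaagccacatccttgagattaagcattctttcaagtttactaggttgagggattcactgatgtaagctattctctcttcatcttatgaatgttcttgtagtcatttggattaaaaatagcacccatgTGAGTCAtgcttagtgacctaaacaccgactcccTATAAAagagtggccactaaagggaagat
Mmp13: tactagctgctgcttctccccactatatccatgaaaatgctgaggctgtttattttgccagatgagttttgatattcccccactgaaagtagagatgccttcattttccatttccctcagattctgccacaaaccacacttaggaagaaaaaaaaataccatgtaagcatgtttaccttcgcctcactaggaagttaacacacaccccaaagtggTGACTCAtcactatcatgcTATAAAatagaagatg
Adamts1: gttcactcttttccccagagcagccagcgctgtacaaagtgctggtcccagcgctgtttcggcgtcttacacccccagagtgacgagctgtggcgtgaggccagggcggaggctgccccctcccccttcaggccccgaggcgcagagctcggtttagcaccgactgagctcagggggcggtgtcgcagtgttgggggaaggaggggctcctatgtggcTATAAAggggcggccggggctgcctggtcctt

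The AP-1 match began 46 bases before the start in Mmp3, 63 bases before it in Mmp10 and 35 bases before it in Mmp13. A TATA box match followed it in each of the 3 genes, with its first base 7, 29 and 16 bases before the start. Adamts1 had a TATA box match 32 bases before the start and no AP-1 match. RefSeq windows of 300 bases, which add the first 50 bases of the gene, were found for 8 of the 10 genes. Those of Mmp14, Timp1, Timp2 and Timp3 held none of these motifs, and Mmp2 and Adamts5 had no window. Mmp14 and Timp1 had a higher estimate in high glucose at all 4 treatment levels, as had Mmp3, Mmp10 and Mmp13. A link between motif and level was not tested. No window of the 8 held the cAMP response element TGACGTCA, which 1.79% of all 32851 windows hold. AP-1 matches were present in 7.81% of all windows, TATA box matches in 13.6% and both together in 1.54%. A match is a run of letters, not a measured binding site.

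**Figure D1:**
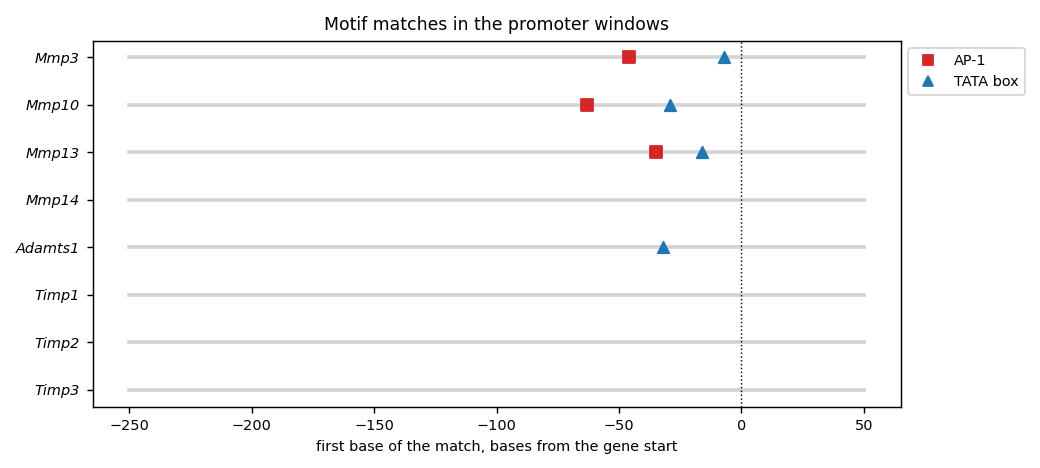
Position of motif matches in the promoter windows of 8 genes, as bases from the gene start (x axis, first base of the match; the dotted line marks the start). Squares are AP-1 matches, at 46, 63 and 35 bases before the start in Mmp3, Mmp10 and Mmp13, and triangles are TATA box matches, which these 3 genes and Adamts1 have.

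Mmp3, stromelysin-1, which cuts many matrix proteins and activates other metalloproteinases, was the most abundant protease of the set. In CPM, with library sizes scaled by TMM factors, its values were 237, 312 and 317 in NGC, 423, 360 and 353 in NG1, 338, 322 and 338 in NG2, and 303, 384 and 329 in NG3. In high glucose they were 705, 983 and 688 in HGC, 815, 808 and 719 in HG1, 620 and 684 in HG2, and 806 and 676 in HG3. Every library in high glucose was above every library in normal glucose. This gap between the media was not seen for any of the other 9 genes. It was also seen for 0.919% of the 13281 genes, and since the rule used this contrast nothing is read from it.

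The mean level of Mmp3 was 335 ± 45.4 CPM (SD, n = 12) in normal glucose and 750 ± 105 CPM (SD, n = 10) in high glucose. On the log2 scale, HGC exceeded NGC by 1.46 ± 0.13 (SE), a fold of 2.75. The difference was 1.04 ± 0.13 between HG1 and NG1, 0.97 ± 0.14 between HG2 and NG2, and 1.13 ± 0.14 between HG3 and NG3. HGC replicate 2 held the highest value of all libraries, and without it and NG3 replicate 3 the HGC difference was 1.28 ± 0.11. In these bulk samples, fewer cells making a transcript and less transcript per cell cannot be told apart.

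By group mean, Mmp3 ran in the order HGC, HG1, HG3, HG2, NG1, NG3, NG2 and NGC. Neighbours in this order overlapped, except HG2 and NG1, on either side of the gap between the media, and NG2 and NGC. The share of all genes with a gap between NG2 and NGC was not counted, so nothing is read from it. The lowest group, NGC, had a mean of 289 ± 44.6 CPM (SD, n = 3), and the next, NG2, 333 ± 9.34 CPM (SD, n = 3). None of the differences between a dose and its own control passed the test for Mmp3. In normal glucose they were 0.39 ± 0.13, 0.21 ± 0.12 and 0.23 ± 0.13 on the log2 scale at doses 1, 2 and 3, with adjusted p of 0.902, 0.839 and 0.526 (edgeR quasi-likelihood test, Benjamini-Hochberg adjustment over all genes). In high glucose they were -0.02 ± 0.12, -0.28 ± 0.14 and -0.10 ± 0.14, with edgeR adjusted p of 0.981, 0.92 and 0.999.

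**Figure D2:**
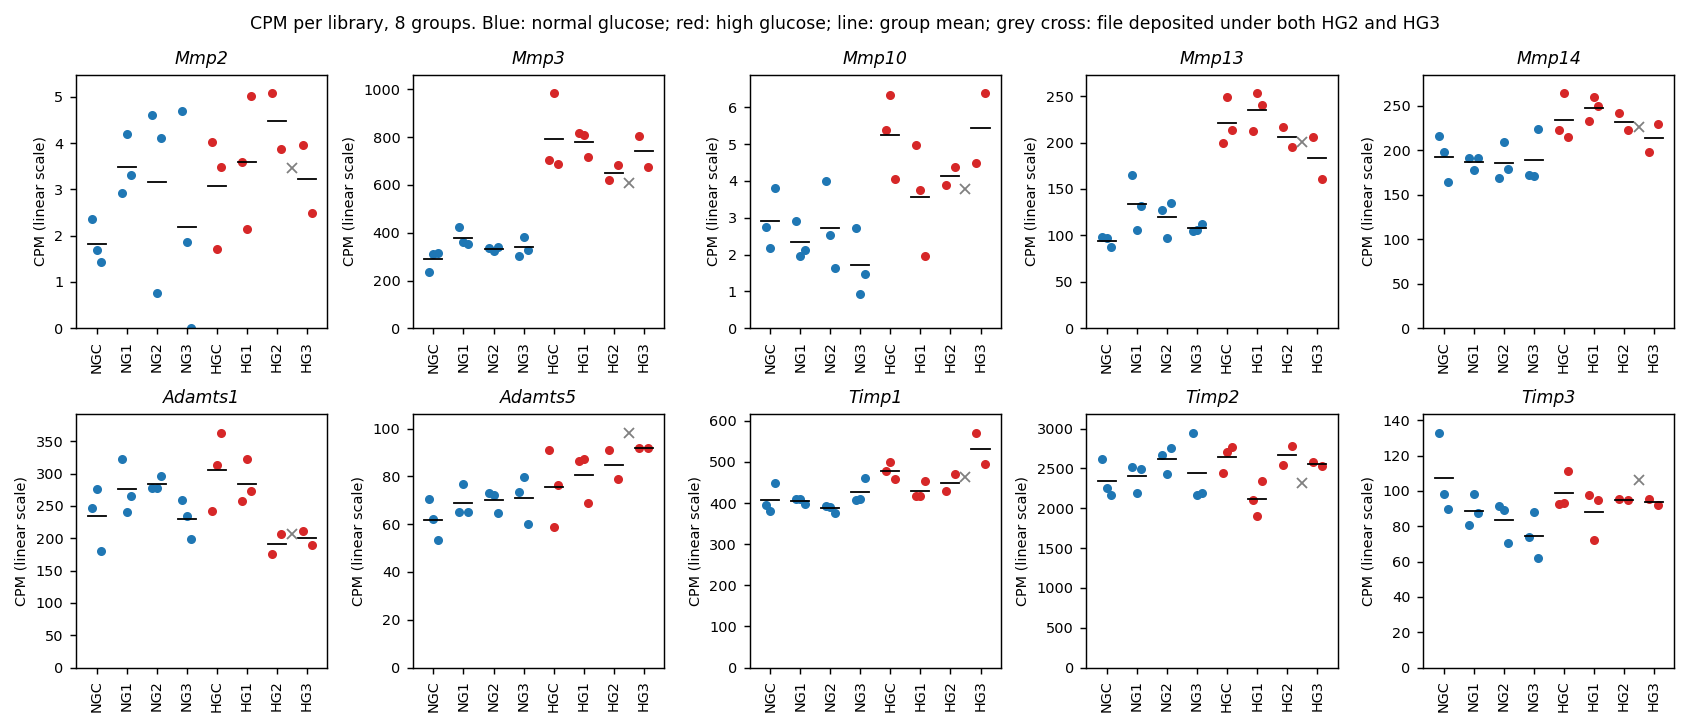
CPM of the 10 genes in each library (points, linear y axis from 0) by group, with group means as lines, normal glucose in blue and high glucose in red; the grey cross is the file deposited under both HG2 and HG3, which entered no mean. Mmp3 separates the media, at 237 to 423 against 620 to 983 CPM, and Adamts1 is at 175 to 212 CPM in the 4 libraries of HG2 and HG3.

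Mmp13, the collagenase-3 that cleaves fibrillar collagen, rose in high glucose at every treatment level. Its values were 98.7, 97.6 and 87.3 CPM in NGC, 165, 106 and 131 CPM in NG1, 127, 97.7 and 135 CPM in NG2, and 105, 106 and 112 CPM in NG3. In high glucose they were 200, 249 and 214 CPM in HGC, 212, 253 and 240.4 CPM in HG1, 216 and 195 CPM in HG2, and 206 and 161 CPM in HG3. The media met at their edges only: the lowest library in high glucose, at 161 CPM in HG3, lay just under the highest in normal glucose, at 165 CPM in NG1.

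HGC exceeded NGC by 1.22 ± 0.14 on the log2 scale for Mmp13, a fold of 2.34, with an edgeR adjusted p of 5.87e-08. Over the 3 dose labels, which share no library with that comparison, the mean difference between the media was 0.79 ± 0.08, with an edgeR adjusted p of 5.6e-09. The call held in all 15 alternative fits of the first comparison, where the log2 difference ran from 1.13 to 1.29, and in all 25 of the second. Without HGC replicate 2 and NG3 replicate 3 the first difference was 1.14 ± 0.14. By group mean the order was HG1, HGC, HG2, HG3, NG1, NG2, NG3 and NGC, and of the neighbours only NG3 and NGC did not overlap. Across the 22 libraries, log2 CPM of Mmp13 and Mmp3 had a Pearson r of 0.93, and of 0.37 once each group's mean was removed; these points share their libraries and, in the first value, the contrast of the media.

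The difference between the media was smaller under mogroside V than in the controls for both genes, but not beyond the test where one applies. For Mmp13 it was 0.81 ± 0.13, 0.78 ± 0.15 and 0.77 ± 0.15 at doses 1, 2 and 3, against 1.22 ± 0.14 in the controls. The interaction, the mean over the doses minus the controls, was -0.44 ± 0.16 with an edgeR adjusted p of 0.41 for Mmp13. That of Mmp3 was -0.41 ± 0.15, given with no test. In normal glucose Mmp13 differed from the control by 0.50 ± 0.14 at dose 1, 0.34 ± 0.14 at dose 2 and 0.19 ± 0.14 at dose 3, with edgeR adjusted p of 0.902, 0.627 and 0.689. The NG1 and NG3 libraries all lay above those of NGC, while 1 of the NG2 libraries did not. The share of all genes with such gaps at a single dose was not counted, so nothing is read from them.

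Mmp10, stromelysin-2, is the closest relative of Mmp3 in the set and was near the limit of detection, with 4 to 32 reads in a library. Its values were 2.75, 2.18 and 3.81 CPM in NGC and 5.38, 6.34 and 4.05 CPM in HGC, so that these control groups did not overlap. Among the 8 genes other than Mmp3 and Adamts1, HGC and NGC did not overlap for 3, Mmp10, Mmp13 and Timp1, beside 17.8% of all genes. Over all levels it had a mean of 2.42 ± 0.90 CPM (SD, n = 12) in normal glucose and 4.56 ± 1.31 CPM (SD, n = 10) in high glucose, and ranges that overlapped between 1.95 and 3.99 CPM. The rise over all levels was 0.91 ± 0.26 on the log2 scale, with an edgeR adjusted p of 0.0185. It did not pass over the dose levels alone, at 0.93 ± 0.31 with adjusted p = 0.055, or in HGC against NGC, at 0.85 ± 0.48 with adjusted p = 0.503 (edgeR). Over the dose levels it passed in 6 of 25 alternative fits, among them DESeq2 (adjusted p = 0.0482), with a range of adjusted p from 0.0256 to 0.164. Without HG3 replicate 3, the library with its highest value, the edgeR adjusted p over all levels was 0.0608.

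Mmp14, the membrane-anchored metalloproteinase that activates the precursor of Mmp2, rose slightly. Its level was 188 ± 19.7 CPM (SD, n = 12) in normal glucose, from 164 to 224 CPM, and 233 ± 20.5 CPM (SD, n = 10) in high glucose, from 198 to 264 CPM. The 2 ranges overlapped, with NGC, NG3, NG1 and NG2 between 186 and 192 CPM by group mean and HG3, HG2, HGC and HG1 between 214 and 247 CPM. The difference over all levels was 0.30 ± 0.06 on the log2 scale with an edgeR adjusted p of 0.00127, and over the dose levels alone 0.30 ± 0.08 with an edgeR adjusted p of 0.0078. In the controls alone it was 0.28 ± 0.12, with an edgeR adjusted p of 0.301.

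Mmp2, gelatinase A, which digests denatured collagen and basement membrane, was the scarcest of the 10, with 0 to 37 reads in a library. It had a mean of 2.66 ± 1.56 CPM (SD, n = 12) in normal glucose and 3.54 ± 1.13 CPM (SD, n = 10) in high glucose, and 1 NG3 library had no read of it. The difference of 0.44 ± 0.34 on the log2 scale did not pass the test (edgeR adjusted p = 0.471), and its 95% interval ran from -0.278 to 1.17.

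**Figure D3:**
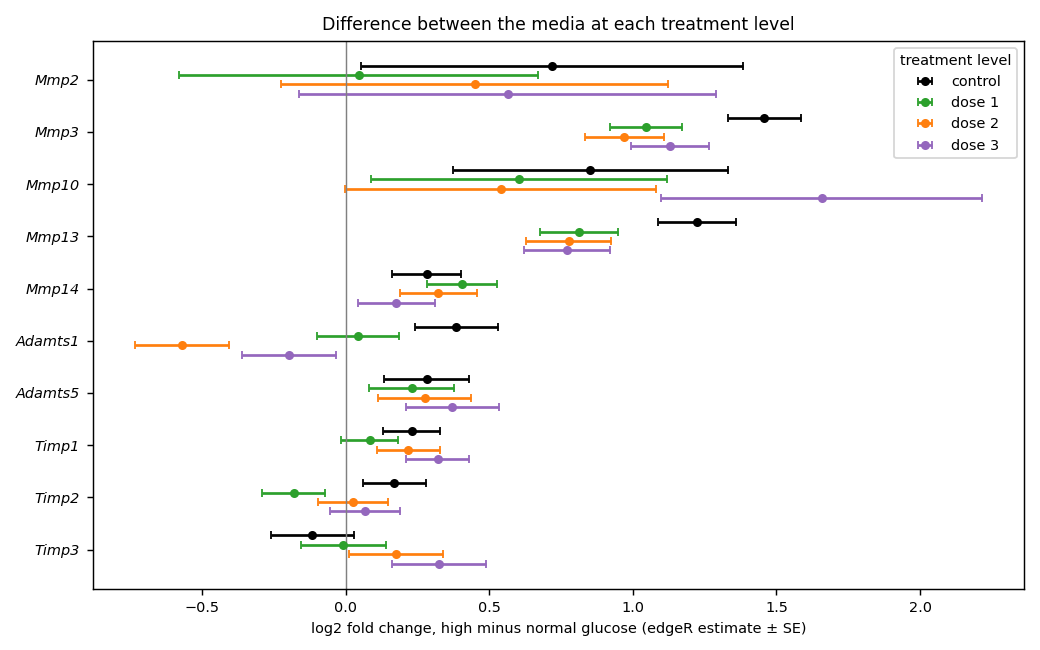
Difference between the media for each gene (x axis, log2 fold change of high against normal glucose, edgeR estimate ± SE) in the controls and at dose labels 1 to 3, which are given as colours. Mmp3 and Mmp13 lie between 0.77 and 1.46 at all 4 levels, whereas Adamts1 runs from 0.38 in the controls to -0.57 at dose 2.

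Leaving out Mmp3 and Adamts1, whose values chose the set, 6 of the remaining 8 genes had a higher estimate in high glucose at all 4 treatment levels: Mmp2, Mmp10, Mmp13, Mmp14, Adamts5 and Timp1. Among all 13281 genes, 26.6% had the same sign at the 4 levels, counting those higher at all and those lower at all. Counted in that way it was also 6 of the 8. Of the same 8 genes, 5 rose over all levels (Mmp10, Mmp13, Mmp14, Adamts5 and Timp1), none fell and 3 did not pass (Mmp2, Timp2 and Timp3), by edgeR adjusted p. Of all genes 10.1% were called in that comparison, 5.71% as higher and 4.38% as lower. Over the dose levels alone 4 of the 8 rose (Mmp13, Mmp14, Adamts5 and Timp1), where 8.1% of all genes were called (4.69% higher and 3.41% lower), and in HGC against NGC 1 of the 8, Mmp13, where 2.28% were called (1.89% higher and 0.392% lower). The median log2 difference of the 8 over all levels was 0.293, and that of all genes -0.0139. Some cell type markers differed between the media as well, and their part in these differences was not tested. By edgeR adjusted p over all levels, Col1a1 and Acta2 rose among 9 tested markers of fibroblasts and pericytes, by 0.23 ± 0.06 and 0.24 ± 0.06 on the log2 scale (adjusted p = 0.00666 and 0.00787). Map2 fell, alone of 8 tested neuronal markers, from 53.3 to 40.6 CPM (-0.39 ± 0.08, edgeR adjusted p = 0.000853), while the summed level of the 13 listed was 159 to 202 CPM in normal and 159 to 181 CPM in high glucose. Nes fell among 4 tested markers of astrocytes and tanycytes, from 88.5 to 69.2 CPM (-0.36 ± 0.07, edgeR adjusted p = 0.000399), in a list of 9 genes that summed to 3088 to 4182 and 2819 to 3924 CPM. Little of that sum came from Aqp4, which had no read, or from Gfap and Aldh1l1, with 5 and 7 reads in all. Slc1a2 and Slc1a3 had at most 5.29 and 6.44 CPM in a library. Csf1r rose among 4 tested markers of microglia and macrophages, from 5.30 to 9.59 CPM (0.88 ± 0.22, edgeR adjusted p = 0.00533), in a list of 8 genes that summed to 133 to 206 and 165 to 214 CPM. Npy1r rose, of 2 tested hypothalamic receptors and neuropeptides, from 1.67 to 4.31 CPM (1.35 ± 0.33, edgeR adjusted p = 0.00455), in a list of 14 genes that summed to 3.09 to 8.48 and 4.76 to 11.9 CPM.

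The other genes of the chromosome 9 cluster were at low levels or without reads, and Mmp8 was the highest of them, with 572 reads in all. In RefSeq order the cluster runs Mmp13, Mmp12, Mmp1b, Mmp3, Mmp1a, Mmp10, Mmp8, Mmp27, Mmp20 and Mmp7. Mmp1a, Mmp1b and Mmp20 had no read in the 22 libraries, Mmp7 had 1 read and Mmp12 had 27. Mmp8, the neutrophil collagenase, was at 5.79 ± 2.48 CPM (SD, n = 12) in normal and 7.40 ± 2.43 CPM (SD, n = 10) in high glucose, a log2 difference of 0.32 ± 0.20 (edgeR adjusted p = 0.372). Mmp27 had 143 reads in all and a log2 difference of 1.03 ± 0.38 (edgeR adjusted p = 0.0804). No exonic stretch of 50 bases was shared by Mmp3, Mmp10 or Mmp13 with any other gene of the annotation. Of the 10 genes, Mmp14 shared such stretches with 175 other genes, the longest of 68 bases with Cdk15. Timp3 shared them with 441, the longest with Syn3.

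Adamts1, a secreted protease of versican and aggrecan that also binds growth factors, had a higher estimate in high glucose at 2 of the 4 treatment levels. Its values were 247, 276 and 180.1 CPM in NGC, 323, 241 and 266 CPM in NG1, 278, 277 and 296 CPM in NG2, and 259, 234 and 199 CPM in NG3. In high glucose they were 242, 314 and 363 CPM in HGC, 258, 322 and 274 CPM in HG1, 175 and 207 CPM in HG2, and 212 and 190.1 CPM in HG3. The 4 libraries of HG2 and HG3 were below all 6 of HGC and HG1, and they overlapped with the lowest libraries of NGC and NG3. The file deposited under both HG2 and HG3, which entered no mean or test, had 207 CPM and so lay among those 4.

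On the log2 scale Adamts1 was lower than in HGC by 0.68 ± 0.17 (SE) in HG2 and by 0.61 ± 0.16 (SE) in HG3, a fold of 0.624 and 0.657. HG2 and HG3 together differed from HG1 by -0.54 ± 0.14. These are the values for which the gene was picked. HG1 differed from HGC by -0.11 ± 0.14. HGC differed from NGC by 0.38 ± 0.14, a comparison that did not choose the gene. This difference did not pass (edgeR adjusted p = 0.206) and passed in 1 of 15 alternative fits. The order of the group means was HGC, HG1, NG2, NG1, NGC, NG3, HG3 and HG2, from 306 down to 191 CPM, and every group overlapped with the next.

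The same dose labels gave no lower Adamts1 in normal glucose that passed the test. NG1, NG2 and NG3 differed from NGC by 0.24 ± 0.14, 0.27 ± 0.14 and -0.03 ± 0.14 on the log2 scale, with edgeR adjusted p of 0.987, 0.795 and 0.974. The 95% interval of the difference at dose 2 ran from -0.0343 to 0.582 in normal glucose, and at dose 3 from -0.335 to 0.284. The difference between the media accordingly went from 0.38 ± 0.14 in the controls and 0.04 ± 0.14 at dose 1 to -0.57 ± 0.16 at dose 2 and -0.20 ± 0.16 at dose 3. The interaction, the mean over the doses minus the controls, was -0.63 ± 0.17 and includes the values that chose the gene.

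Adamts5, the main aggrecanase of mouse cartilage, was highest in HG3, with 91.97 and 92.02 CPM, and lowest in NGC, with 70.4, 62.0 and 53.3 CPM. Its group means rose in the order NGC, NG1, NG2, NG3, HGC, HG1, HG2 and HG3, with overlap between all neighbours except HG2 and HG3. The file deposited under both HG2 and HG3, which entered no mean or test, had 98.3 CPM, above every library used. If it belongs to HG2, HG2 and HG3 overlap as well. The share of all genes with a gap between HG2 and HG3 was not counted, so nothing is read from it. The levels were 68.0 ± 7.62 CPM (SD, n = 12) in normal and 82.2 ± 11.3 CPM (SD, n = 10) in high glucose. The difference was 0.29 ± 0.08 over all levels, with an edgeR adjusted p of 0.0107, and 0.29 ± 0.09 over the dose levels alone, with an edgeR adjusted p of 0.0374. The second call was lost in 8 of 25 alternative fits, each without 1 library, where the adjusted p reached 0.137 without HG2 replicate 1. At the doses where Adamts1 was low in high glucose, the differences of Adamts5 from HGC were positive: 0.17 ± 0.16 in HG2 and 0.29 ± 0.16 in HG3, neither past the test (edgeR adjusted p = 0.97 and 0.999).

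Among the inhibitors, Timp1 rose slightly in high glucose and Timp2 and Timp3 did not pass the test. Timp1, the secreted inhibitor that is induced in injury and inflammation, was at 407 ± 25.1 CPM (SD, n = 12) in normal glucose, from 377 to 462 CPM, and at 469 ± 46.3 CPM (SD, n = 10) in high glucose, from 417 to 571 CPM. The 3 HGC libraries, at 478, 499 and 459 CPM, were all above those of NGC, at 395, 382 and 448 CPM. The difference was 0.21 ± 0.05 on the log2 scale over all levels (edgeR adjusted p = 0.00494) and 0.21 ± 0.06 over the dose levels alone (edgeR adjusted p = 0.0272). In the controls alone it was 0.23 ± 0.10 (edgeR adjusted p = 0.302). The group means ran HG3, HGC, HG2, HG1, NG3, NGC, NG1 and NG2, and of the neighbours only NG1 and NG2 did not overlap. The share of all genes with a gap between NG1 and NG2 was not counted, so nothing is read from it. The call over the dose levels was lost in 6 of 25 alternative fits, with an adjusted p of up to 0.131 without HG3 replicate 1, the library with the highest Timp1.

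Timp2, which inhibits Mmp2 and also takes part in its activation by Mmp14, was the most abundant of the 10. It was at 2451 ± 262 CPM (SD, n = 12) in normal and 2471 ± 288 CPM (SD, n = 10) in high glucose, a difference of 0.02 ± 0.06 on the log2 scale (edgeR adjusted p = 0.887). Its lowest group was HG1, with 2098, 1902 and 2348 CPM, where the HGC libraries were at 2439, 2705 and 2775 CPM. HG1 differed from HGC by -0.32 ± 0.11 (edgeR adjusted p = 0.431), and HG2 and HG3 together from HG1 by 0.30 ± 0.10 (edgeR adjusted p = 0.215).

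Timp3, the inhibitor that stays bound to the matrix and also blocks ADAMTS enzymes, was at 88.6 ± 17.8 CPM (SD, n = 12) in normal and 93.9 ± 9.43 CPM (SD, n = 10) in high glucose. In normal glucose its values were 133, 98.3 and 89.9 CPM in NGC, 80.8, 98.2 and 87.4 CPM in NG1, 91.4, 89.3 and 70.6 CPM in NG2, and 74.0, 87.9 and 62.2 CPM in NG3. The NG3 libraries were all below those of NGC, but the share of all genes with such a gap at this dose was not counted. The differences from NGC were -0.27 ± 0.15, -0.35 ± 0.14 and -0.52 ± 0.15 on the log2 scale at doses 1, 2 and 3, with edgeR adjusted p of 0.987, 0.655 and 0.112. The last passed with DESeq2 (adjusted p = 0.0479) and in 2 more of 15 alternative fits, over which the adjusted p ran from 0.0239 to 0.758. In high glucose the differences from HGC were -0.16 ± 0.15, -0.06 ± 0.16 and -0.08 ± 0.16 (edgeR adjusted p = 0.83, 0.995 and 0.999). The interaction, over the 3 doses, was 0.28 ± 0.17 for Timp3 (edgeR adjusted p = 0.685).

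Timp1, Timp2 and Timp3 overlap other genes in the annotation: Syn1 on the other strand, Cep295nl on the same strand and Syn3 on the other strand. Whether the counting used strand is not stated in the sources at hand, so reads of such pairs may be left out or misassigned, and the 3 TIMP levels are uncertain to that extent. The longest exonic stretch that Timp3 shares with Syn3 is 1733 bases. The 3 overlapping genes had at most 7.56, 6.37 and 4.14 CPM in a library for Syn1, Cep295nl and Syn3.

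**Figure D4:**
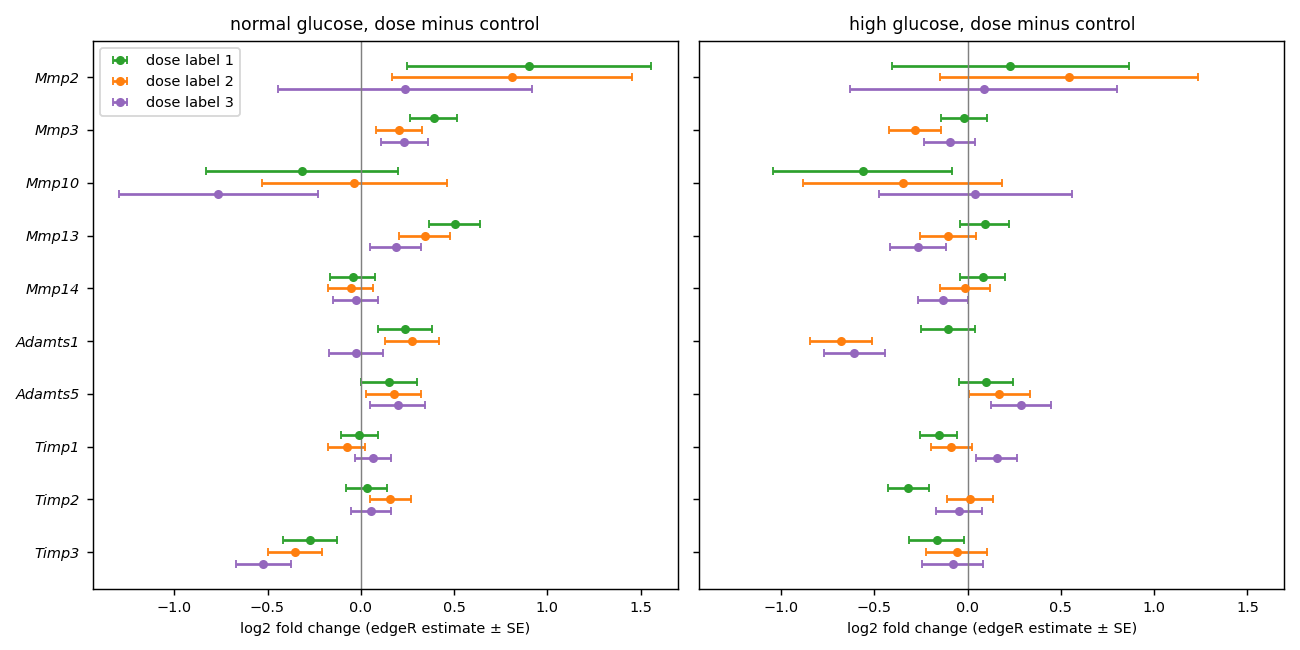
Difference of each dose label from the control of the same medium (x axis, log2 fold change, edgeR estimate ± SE), with normal glucose on the left and high glucose on the right. Adamts1 at doses 2 and 3 in high glucose, at -0.68 and -0.61, stands to the left of its 3 values in normal glucose, which lie between -0.03 and 0.27.

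None of the 10 genes was called for a single dose against the control in normal glucose, and none of the 8 genes other than Mmp3 and Adamts1 in high glucose, nor for the 3 doses together in either medium. Few genes of any kind were: by edgeR adjusted p the share of all genes called was 0% in NG1, 0.00753% in NG2, 0.128% in NG3, and 0% for the 3 doses together in normal glucose. It was 0% in HG1, HG2 and HG3 and for the 3 doses together in high glucose. At an unadjusted p under 0.05, 2, 2 and 1 of the 10 genes in NG1, NG2 and NG3 had a difference, where 4.88, 6.46 and 10.4% of all genes did. In HG1, HG2 and HG3 it was 1, 0 and 0 of the 8 genes, where 7.78, 5.35 and 4.51% of all genes did, and the gene in HG1 was Timp2. For the 3 doses together it was 3 of the 10 genes in normal glucose and 0 of the 8 in high glucose, beside 8.43 and 5.11% of all genes.

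Neither of the other comparisons of doses gave a call among the same 8 genes by edgeR adjusted p. In HG2 and HG3 together against HG1, where 0.279% of all genes were called, 3 of the 8 had an unadjusted p under 0.05, Mmp13, Timp1 and Timp2, beside 10.8% of all genes. In the interaction, where 0.00753% of all genes were called, it was 1 of the 8, Mmp13, beside 8.48% of all genes. DESeq2 called Timp3 in NG3, where it called 2.99% of the genes that it gave an adjusted p. It called none of the 8 in the other comparisons of doses. The share of genes that it called was 0% in NG1, 0.603% in NG2, 4.62% for the 3 doses in normal glucose, 1.77% in HG1, 0% in HG2, in HG3 and for the 3 doses in high glucose, 1.87% in HG2 and HG3 against HG1, and 3.07% in the interaction.

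Per kilobase of exon, the 3 inhibitors together outweighed the 5 metalloproteinases together in every library. The length counts every annotated exon of a gene, not the transcript in use, so levels of different genes compare only roughly. The mean level over the 22 libraries was 631 CPM per kb for Timp2, 490.1 for Timp1 and 291 for Mmp3. It was 59.8 CPM per kb for Mmp13, 48.3 for Adamts1, 35.0 for Mmp14, 11.2 for Timp3, 6.90 for Adamts5, 1.97 for Mmp10 and 0.907 for Mmp2. Mmp3 made up 63.6 to 75.5% of the summed RNA of the 5 metalloproteinases in normal glucose and 73.3 to 79.7% in high glucose.

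The summed RNA of the 5 metalloproteinases per length came to 23.95 ± 3.12% (SD, n = 12) of that of the 3 TIMPs in normal glucose, from 18.3 to 29.7%, and to 46.5 ± 7.93% (SD, n = 10) in high glucose, from 39.2 to 60.9%. Without Mmp3, which chose the set, the share was 6.97 ± 0.75% in normal and 10.6 ± 1.89% in high glucose. The highest library in normal glucose, at 8.63% in NG1, was just above the lowest in high glucose, at 8.46% in HG3. The TIMP sum itself was 1098 ± 57.8 and 1174 ± 112 CPM per kb, with overlapping ranges. These are RNA levels, which say nothing of the active enzyme.

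**Figure D5:**
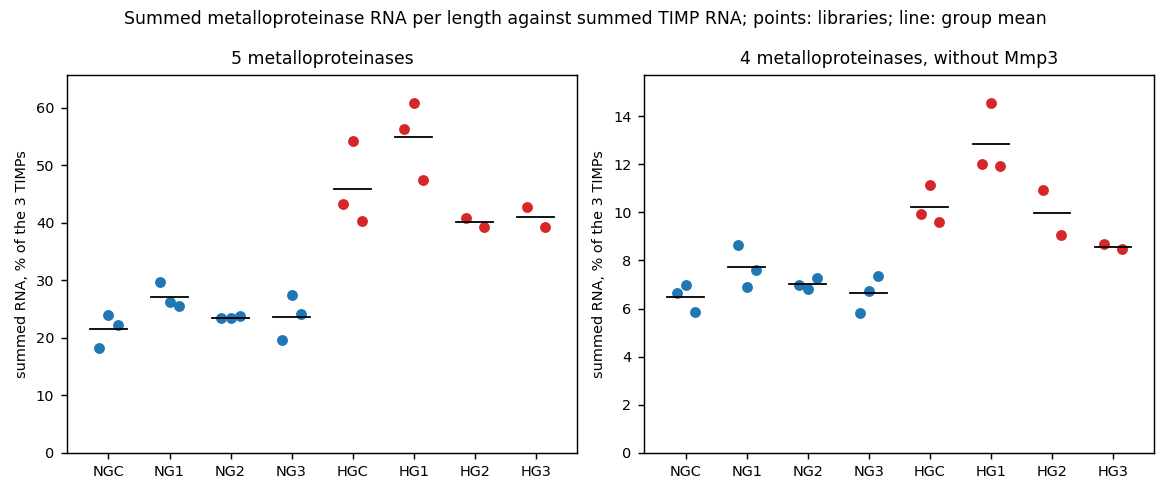
Summed RNA per kilobase of exon of 5 metalloproteinases (left) and of 4 without Mmp3 (right), as a percentage of the sum of Timp1, Timp2 and Timp3 (y axes from 0), for each library (points) and group mean (lines). The media are apart on the left, at 18.3 to 29.7% against 39.2 to 60.9%, and on the right they touch at 8.46 and 8.63%.

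The other genes of the protease system are given by list, beside the 10.1% of all genes called over all levels. Of 18 other metalloproteinases 7 were tested and none was called over all levels of high against normal glucose, with a median log2 difference of 0.0482. Of 23 other ADAMTS and related genes 10 were tested, and 1 rose and 1 fell: Adamtsl5, a matrix protein without protease domain, by 0.29 ± 0.09 (edgeR adjusted p = 0.0343), and Adamtsl1, another such protein, by -0.63 ± 0.20 (edgeR adjusted p = 0.0318). These calls were lost in 8 and 10 of 30 alternative fits. Of 10 ADAM proteases 7 were tested and none was called, and likewise none of 5 tested inhibitors and partners such as Bsg, the inducer of metalloproteinases, and Lrp1, the receptor that clears them.

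Of the plasminogen system and the convertases, which activate metalloproteinase precursors, 9 of 13 genes were tested. Plau, the urokinase that turns plasminogen into plasmin, went from 48.0 ± 7.06 CPM (SD, n = 12) in normal to 38.6 ± 6.54 CPM (SD, n = 10) in high glucose, by -0.30 ± 0.09 on the log2 scale with an edgeR adjusted p of 0.0374. This call was lost in 14 of 30 alternative fits, among them the one without NG3 replicate 3 and HGC replicate 2 (-0.24 ± 0.09, edgeR adjusted p = 0.082).

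Of 17 matrix substrates 13 were tested, and 3 rose, 1 fell and 9 did not pass over all levels. Thbs1, thrombospondin-1, which ADAMTS1 is known to cleave, rose by 0.56 ± 0.11 (edgeR adjusted p = 0.00399), the glycoprotein Tnc by 0.25 ± 0.07 (edgeR adjusted p = 0.0177) and Fbln2, fibulin-2, by 0.21 ± 0.07 (edgeR adjusted p = 0.0355). Hspg2, perlecan, a basement membrane proteoglycan, fell by 0.25 on the log2 scale (edgeR adjusted p = 0.0273), and by 0.18 without NG3 replicate 3 and HGC replicate 2, where it did not pass (edgeR adjusted p = 0.0809). The calls of Hspg2, Fbln2 and Tnc were lost in 8, 10 and 2 of 30 alternative fits, and that of Thbs1 was lost in none of them. Of 16 AP-1 and ETS factors 15 were tested, and 2 rose, Ets2 and Elk1 by 0.32 ± 0.08 and 0.29 ± 0.09 (edgeR adjusted p = 0.00642 and 0.0348), and 1, Etv5, fell by 0.62 (edgeR adjusted p = 0.000923). The Elk1 call was lost in 11 of 30 alternative fits, and those of Ets2 and Etv5 in none of them. Fos, an AP-1 subunit, differed by -0.45 ± 0.18 and did not pass (edgeR adjusted p = 0.144). The other tested subunits, Fosb, Fosl2, Jun, Junb and Jund, had positive estimates, from 0.03 for Fosb to 0.13 for Junb, and none passed. Median log2 differences were 0.149 for the substrates and 0.0353 for the factors, beside -0.0139 for all genes, of which 10.1% were called.

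The genes whose log2 CPM followed Mmp3 most closely over the 22 libraries, of 10140 genes with at least 5 CPM on average, were Ccn5 (Pearson r = 0.962), Mfsd1 (0.957), Atp6v1d (0.938), Grem1 (0.938) and Msmo1 (0.937). Within groups, after each group's mean was removed, these r were 0.454, 0.456, 0.559, 0.297 and 0.073. Ccn5, a secreted matrix-associated protein, averaged 36.3 CPM in normal and 72.5 CPM in high glucose, and Grem1, a secreted inhibitor of bone morphogenetic proteins, 81.4 and 148 CPM. For Adamts1 the 5 closest were Gstt1 (0.768), Adarb1 (0.762), Tspan11 (0.737), Hes1 (0.726) and Rsrp1 (0.725), with r within groups of 0.436, 0.678, 0.512, 0.725 and 0.617. Mmp3 and Adamts1 themselves had an r of 0.0776.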

How the data were processed

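Gene-level read counts of 24 libraries, 1 file each, were used as deposited. Per the submitters' processing notes, the authors used STAR 2.7.5c, HTSeq 1.99.2, FastQC 0.11.9 and DESeq2 3.16 with the build GRCm39; the deposited counts are whole numbers, not normalized. Groups came from sample titles. The 10 genes, the gene lists and the tests were chosen with earlier results of these data known, so adjusted p-values of these genes are not independent evidence. The 5 HTSeq summary lines were left out; symbols matched 51948 IDs. Counts were tested in 1 fit of 22 libraries (edgeR 4.0.16, R 4.3.3; TMM factors, default low-count filter over the 8 groups, robust quasi-likelihood F tests, 14 residual degrees of freedom, common biological coefficient of variation 0.149), with Benjamini-Hochberg adjustment over 13281 genes in each of 13 comparisons and a threshold of 0.05. The standard error is the absolute log2 difference divided by the square root of F; the median was 0.232 for HGC against NGC and 0.124 over all levels. Correlations used log2 CPM with a prior count of 2. Exonic lengths came from GENCODE and count each base that lies in an exon of any annotated transcript of the gene. Shared stretches were searched with BLAST 2.17.0. Other genes were named by a rule: up to 4 per list with the lowest p, plus those called; genes of the chromosome 9 cluster and genes overlapping the TIMPs were named for their position, after values were seen. Some results of the list of plasminogen genes and convertases are not reported here. Alternatives were DESeq2 1.42.0, a fit without the filter on low counts, RLE factors, a fit of the compared groups alone, the replicate number as a block, all 24 files, the identical file placed in HG2 or HG3, NG3 replicate 3 and HGC replicate 2 left out, and each library left out. The code was tested on simulated counts.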

Additional observations from a re-analysis of the deposited data

How the results depend on the processing

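Mmp2 and Mmp10 had at most 37 and 32 reads in a library, the fewest of the 10, and the largest SE over all levels, 0.34 and 0.26. What limits the precision of each gene was not tested. Directions of the called genes were kept in every alternative run. Among the 8 genes other than Mmp3 and Adamts1, 1 was called in HGC against NGC under every alternative. Over all levels 5 were called, with 4 without HG3 replicate 3. Over the dose levels alone 4 were called, with 2 (without NG1 replicate 3, NG2 replicate 3 or HG3 replicate 1) to 5. In NG3 against NGC 0 genes became 1, Timp3, with DESeq2, with no low-count filter and without NG3 replicate 2. In HG2 and HG3 against HG1 0 genes became 1, Timp2 (adjusted p = 0.0238), with only those groups in the fit. Counted over all 10 genes, Mmp3 adds 1 in each comparison of the media (2, 5 and 6 genes, with 2 to 3, 3 to 6 and 5 to 6 when 1 library was left out). Adamts1 adds 1 in HGC against NGC without HGC replicate 1, and with no low-count filter over the dose levels, in HG2, in HG3 and in the 3 doses together against HGC. In HG2 and HG3 against HG1 it adds 1 with DESeq2, with no low-count filter, with all 24 files and with the identical file in HG2 or in HG3, and makes 2 genes with only those groups in the fit. In the interaction it adds 1 with DESeq2 and with no low-count filter. Apart from Adamts1 in HGC against NGC, these comparisons hold the values on which Mmp3 and Adamts1 were chosen, so nothing is read from what they add. The cause of these moves was not tested. In the other comparisons 0 genes were called under every alternative. Where HG2 or HG3 loses a library, the lone one is assumed to vary like the other groups. Same-numbered libraries did not deviate together (mean r 0.00487, from -0.108 to 0.165 over 70 pairs, against -0.00241 for different numbers). These values give no sign of pairing by number, but they cannot show how the libraries were handled. With the replicate block 2, 5 and 6 of the 10 genes were called in HGC against NGC, over the dose levels and over all levels, and 0 in the others. The number of all genes called ranged over the alternatives from 163 (without NGC replicate 1) to 375 in HGC against NGC (303 as reported; 184 without NGC replicate 2, 166 without HGC replicate 2) and from 654 (without HG2 replicate 1) to 1573 over the dose levels (1076; 713 without HG3 replicate 3). It was 0 to 116 (DESeq2) against 0 for the 3 doses in normal glucose, 0 to 35 (DESeq2) against 1 in NG2, 0 to 186 (no filter) against 17 in NG3, 0 to 50 (no filter) against 0 in HG1, 0 to 2, 3 and 5 (no filter) against 0 in HG2, in HG3 and in the 3 doses in high glucose, 0 to 337 (only those groups) against 37 in HG2 and HG3 against HG1, and 0 to 77 (DESeq2) against 1 in the interaction.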
